A study of Homo sapiens with 4 samples.

Results

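Nucleoporins and nuclear transport receptors build and serve the channel through which proteins and RNA pass between nucleus and cytoplasm. Their mRNAs were followed here in RNA recovered with SIRT7, a deacylase of the nucleus and nucleolus. The members were taken by gene name: all symbols that start with NUP, IPO, XPO, KPNA or TNPO and a number (or XPOT) and hold no hyphen, plus KPNB1, CSE1L, RAN, RANBP2, TPR, NXF1, NXT1 and NUTF2. They numbered 53 of the 23615 genes in the table.

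The nuclear pore complex is a ring-shaped assembly of scaffold nucleoporins that sits in the nuclear envelope, with flexible, phenylalanine-glycine rich nucleoporins filling its channel. Importins and exportins are carriers that bind cargo and pass through this channel. The small GTPase RAN sets their direction: with GTP bound, in the nucleus, it releases cargo from importins and loads cargo onto exportins. Bulk mRNA export runs instead through the heterodimer of NXF1 and NXT1.

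The SIRT7 RIP group held 2 libraries of RNA that came down on anti-Flag gel from lysates of HEK293T cells, a human embryonic kidney line, and was freed from the protein by proteinase K. The input group held 2 libraries of total RNA from the same kind of cells. Both groups came from cells that stably overexpressed Flag-SIRT7, and both were depleted of ribosomal RNA before strand-specific library construction. The labels give neither the number of clones in the line nor the cultures behind each library, so p-values measure the spread between these libraries, which may be technical. With 2 libraries against 2, an exact permutation test cannot go below p = 0.33, and the tests below are fits across all genes. No pull-down from untagged cells was analysed here, so the RIP values include any RNA held by the gel rather than by SIRT7. In bulk libraries fewer cells with an mRNA and less of it per cell cannot be told apart.

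The libraries held 25655459 and 25998038 fragments in RIP, against 18131596 and 17310755 in input. SIRT7 mRNA took 3.41% and 3.35% of the RIP fragments, against 0.149% and 0.151% of the input fragments; transgene and endogenous SIRT7 cannot be told apart in these counts. Of 6 markers of HEK293T cells, VIM, KRT8, KRT18, NEFL and NEFM were detected in both groups, while the kidney factor PAX2 was near 0 (0.122 FPKM in RIP and 0.117 FPKM in input). Of 14 markers of other cell types, 12 had too few fragments to be tested, and HBB, CD3E and INS were listed at 0 in all libraries.

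The mRNAs of pore proteins and transport receptors as a whole made up a smaller part of the RNA recovered with SIRT7 than of total RNA. Together the 53 genes took 0.570% and 0.577% of all fragments in RIP, against 1.17% and 1.15% in input. These shares are of library totals. On that scale the median log2 fold change of all tested genes was itself -0.76, and 65.5% of them were lower. On the main scale all exportin mRNAs and most importin and nucleoporin mRNAs were lower in RIP, where 39.7% of all tested genes were lower. The short mRNAs of NXT1, NUTF2 and RAN, and those of KPNA2 and IPO4, were higher, where 38.0% of all tested genes were higher. With library totals RAN, KPNA2 and IPO4 were not called. With the trend for transcript length taken out, 4 of 7 exportins, 4 of 11 genes of the importin beta family, 1 of 6 importin alphas and 11 of 23 nucleoporin genes were lower, against 34.6% of all tested genes. On that scale 16 of the 51 tested members were higher (31.4%), against 33.6% of all tested genes. NUTF2 was then not called (0.19) and RAN turned lower (-0.41). Among the members, NXT1 alone was called higher in the main test and every alternative. The main scale is TMM, edgeR's library scaling, on which normalised counts (CPM, counts scaled to library size) and fold changes are given unless stated otherwise. Falls, and values quoted for another scaling, are log2 fold changes.

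A pair of genes, the tissue-restricted importin alpha KPNA7 and the pseudogene NUP210P1, had 0 fragments in every library, which allows at most 0.117 and 0.115 CPM of the library totals in RIP and 0.165 and 0.173 in input (3 fragments). These limits cover counting error only. The other 51 passed the count filter and were tested with edgeR's quasi-likelihood test over all 14555 expressed genes, with a Benjamini-Hochberg adjusted p under 0.05 counted as a call. NUP210L passed this filter through its input counts alone, so a difference was built into its passing.

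Of the 51 tested genes, 11 were called higher in RIP, where 38.0% of all tested genes were called higher, and 35 were called lower, where 39.7% of all tested genes were. In shares this was 21.6% higher and 68.6% lower. The median log2 fold change was -0.62, against -0.030 over all tested genes. Changes of at least 2-fold were seen for 2 genes in the higher direction (17.5% of all tested genes) and for 10 in the lower direction, a share close to the 19.1% of all tested genes. The 35 and the 10 include NUP210L, whose difference was built into its passing of the filter. CPM values did not overlap between groups for 49 of the 51, against 89.2% of all tested genes.

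The split depends on how the libraries are scaled. When library totals replaced TMM factors, 2 members were higher (17.0% of all genes) and 45 lower (65.5% of all genes), and the median of all genes moved to -0.76. Relative to that median the members' own median was -0.59 under either scaling. This follows from the arithmetic, as a change of scaling moves every gene by nearly the same amount, and is no independent check. Directions below are on the TMM scale, and each value "with library totals" shows where a direction ends or turns.

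**Figure D1:**
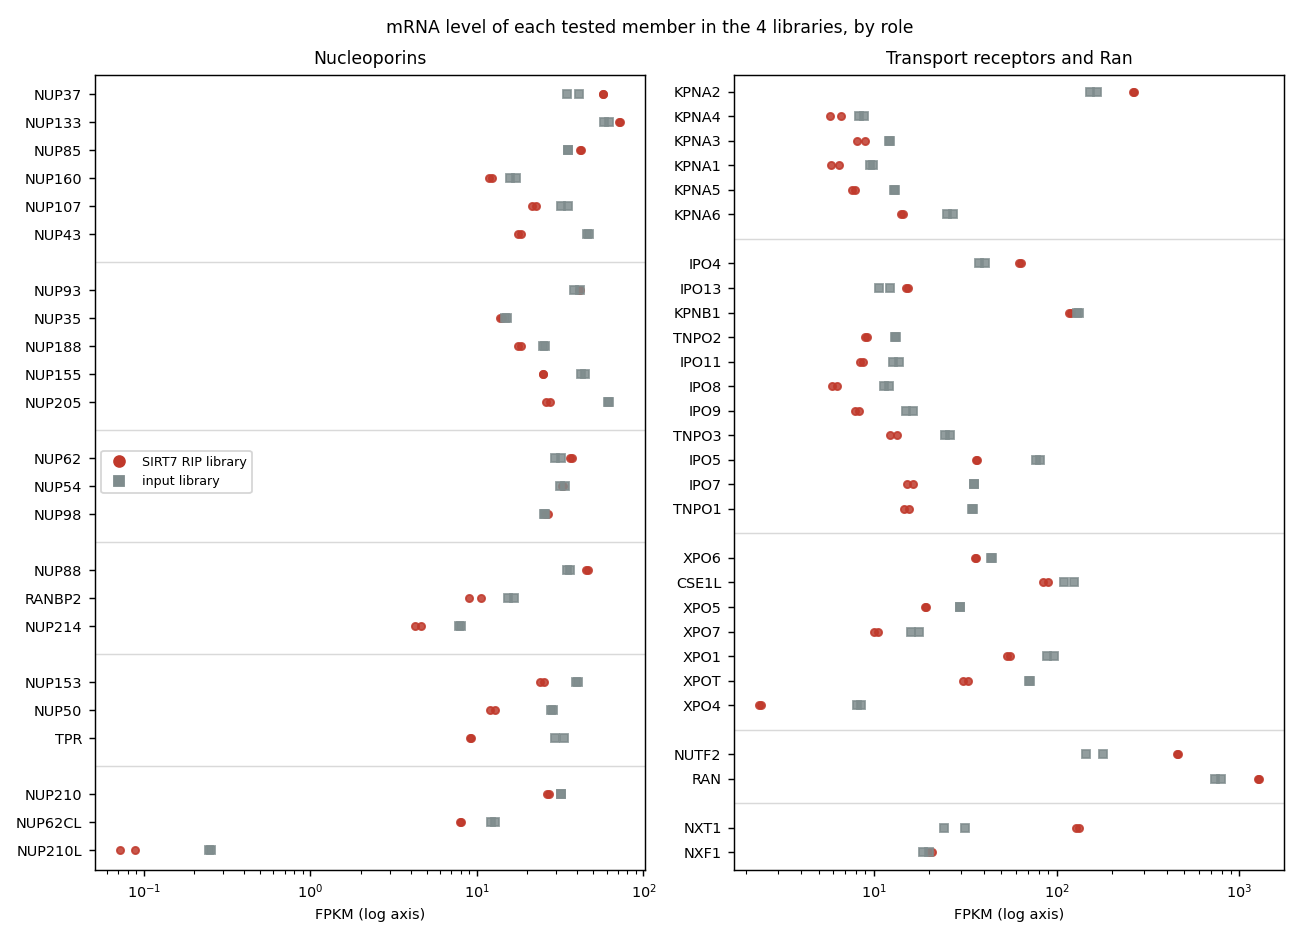
FPKM (fragments scaled to transcript length and library size, log axis) of each of the 51 tested members, by role, with 1 point per library: circles for the 2 SIRT7 RIP libraries and squares for the 2 input libraries. Libraries of a group lie close together, RAN is the most abundant member in both groups, and the RIP points lie left of the input points for all 7 exportins.

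Transcript length ran along with these differences. Long mRNAs were generally low and short ones high in RIP, and most members are long: the median effective length was 1.59 times that of the median tested gene, with 39 members above it and 12 below. The effective length of a gene is the ratio of its scaled fragments to its FPKM. Among the 39 longer members 33 were lower and 4 higher, and among the 12 shorter ones 2 were lower and 7 higher. Over all tested genes of any length 39.7% were lower and 38.0% higher. Shares within a length class were not computed over all genes, so these counts are not set apart from the general trend. Across the 51 members the log2 fold change fell with log2 length (Pearson r = -0.74, Spearman rho = -0.65), close to the rho of -0.60 across all 14555 genes. These correlations run across genes of the same 4 libraries, which are not independent replicates.

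**Figure D2:**
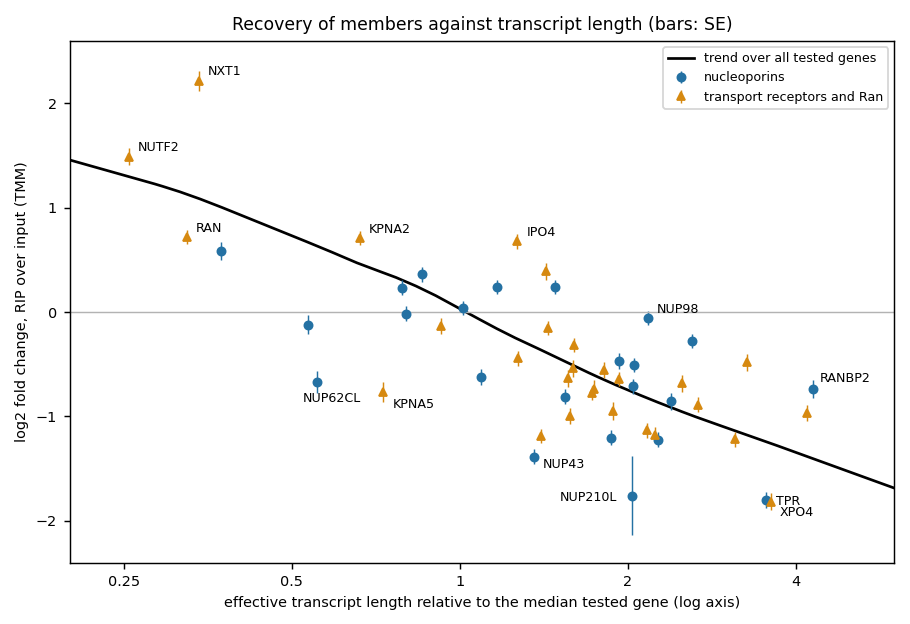
Log2 fold change in RIP over input (TMM, bars SE) against effective transcript length relative to the median tested gene (log axis), for tested nucleoporins (circles) and transport receptors with RAN (triangles); the line is the trend over all tested genes. Of the labelled genes, NXT1, IPO4, NUP98, RANBP2, KPNA2 and NUTF2 lie above the line, and XPO4, TPR, NUP43, KPNA5, NUP62CL, NUP210L and RAN below it.

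The length trend over all genes was therefore taken out with offsets in the same test. Across the members Spearman rho between log2 length and log2 fold change was then 0.19. A weak relation of opposite sign was thus left among them. With these length offsets 16 members were higher (33.6% of all genes) and 22 lower (34.6% of all genes), and the members' median was -0.075, against -0.030 over all genes. Of the 35 genes lower before, 17 stayed lower, 9 were no longer called and 9 turned higher. Of the 11 genes higher before, 6 stayed higher, 3 were no longer called and 2 turned lower. Shares of kept, lost and turned calls were not computed over all genes. These counts are therefore not set apart from what the offsets do in general. Over the main test and its 13 alternatives, 1 member was called higher every time (NXT1), where 13.7% of all tested genes were, and 17 of 51 were called lower every time, where 21.4% of all tested genes were. The 17 were the exportins CSE1L, XPO1, XPOT and XPO4, the importins KPNA5, IPO5, IPO7, IPO8 and TNPO3, and the pore genes NUP107, NUP43, NUP155, NUP205, NUP50, TPR, NUP62CL and NUP210L. NUP210L passed the count filter through its input counts alone, so its place in this list is not independent of the filter.

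**Figure D3:**
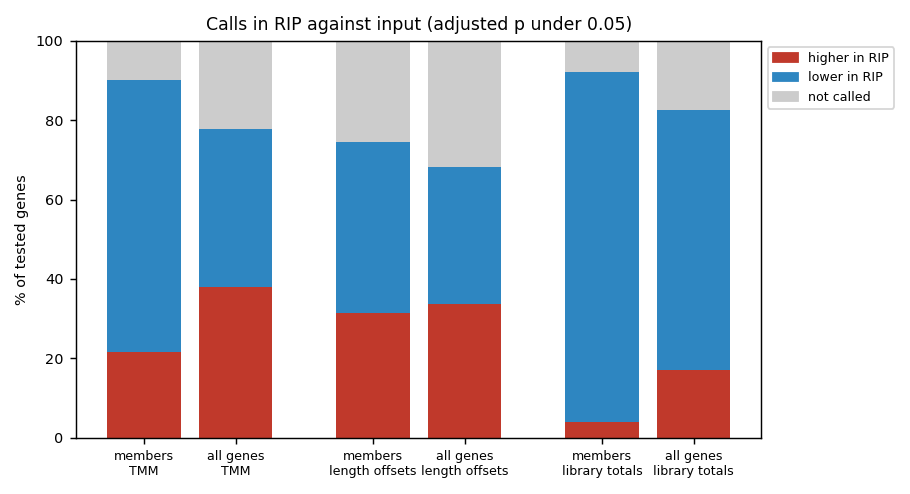
Share of tested genes (%) called higher in RIP, lower in RIP or not called, for the 51 members and for all 14555 tested genes, under TMM scaling, with length offsets and with library totals. The members had 68.6% lower calls against 39.7% over all genes with TMM, and 43.1% against 34.6% with length offsets.

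The mRNA export receptor gave a wide contrast between partners. NXT1 (also p15) is the small subunit that pairs with NXF1, the large subunit that binds mRNA. NXT1 had 129.9 and 126 CPM in RIP, against 24.2 and 30.9 CPM in input. Both RIP libraries stood far above both input libraries, a 4.65-fold rise and the largest change of any member (log2 2.22, SE 0.0963, edgeR adjusted p = 1.10e-11). It remained higher with library totals (1.49) and with length offsets (1.13), and its mRNA is short (0.341 times the median gene).

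NXF1 had 49.7 and 52.4 CPM in RIP, against 55.4 and 56.6 CPM in input. The RIP values were slightly below the input values, without overlap, and NXF1 was not called (log2 -0.13, SE 0.0765, edgeR adjusted p = 0.123). It was lower with library totals (-0.86) and with length offsets (-0.27), and at 0.077 on the log2(FPKM + 1) scale. Per length, NXT1 stood at 131 ± 3.06 FPKM in RIP and 27.8 ± 5.11 FPKM in input, while NXF1 stood at 20.5 ± 0.7 FPKM in RIP and 19.3 ± 1.02 FPKM in input (SD, n = 2 each): NXT1 was far above NXF1 in RIP and within 1.5 times of it in input.

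RAN and its carrier came next. NUTF2 (NTF2) carries GDP-bound RAN back into the nucleus, where it is loaded with GTP again. NUTF2 had 335 and 340.4 CPM in RIP, against 109 and 132 CPM in input, with the groups well apart. It rose 2.81-fold (log2 1.49, SE 0.084, edgeR adjusted p = 1.90e-10) and stayed higher with library totals (0.76), but with length offsets it was at 0.19 and not called. NUTF2 had the shortest effective length of the tested members, 0.255 times the median gene.

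RAN was the most abundant member in every library, at 1274 ± 17.0 FPKM in RIP and 765 ± 44.1 FPKM in input (SD, n = 2 each). In counts it had 1173 and 1198 CPM in RIP, against 698 and 743 CPM in input. Both RIP libraries were above both input libraries, a 1.65-fold rise (log2 0.72, SE 0.0684, edgeR adjusted p = 9.60e-08). As a share of all fragments, however, RAN made up 0.0911% and 0.0929% in RIP, against 0.0905% and 0.0949% in input, and these shares overlap. The rise was accordingly gone with library totals (-0.012), and RAN turned lower with length offsets (-0.41).

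Among the importin alphas, the adaptors that hold classical nuclear localisation signals and bind KPNB1, KPNA2 stood apart on the TMM scale only. Of the 6 tested, KPNA2 alone was higher and the other 5 were lower, against 38.0% and 39.7% of all tested genes. With library totals none were higher and 5 lower, against 17.0% and 65.5%. With length offsets 3 were higher and 1 lower, against 33.6% and 34.6%. KPNA2 had 504 and 501 CPM in RIP, against 298 and 318 CPM in input. It rose 1.63-fold (log2 0.71, SE 0.0685, edgeR adjusted p = 1.17e-07), stayed higher with length offsets (0.25) and was not called with library totals (-0.023).

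KPNA6 had the lowest fold change of the family, with 111 and 108 CPM in RIP, against 212 and 194 CPM in input, so that both RIP libraries lay well below input. It fell by 0.89 on the log2 scale (SE 0.0716, edgeR adjusted p = 1.34e-08). KPNA5, KPNA1, KPNA3 and KPNA4 fell by 0.76, 0.68, 0.54 and 0.48 on the log2 scale. With length offsets KPNA5 was lower still (-1.14), KPNA1 and KPNA4 turned higher (0.27 and 0.70), and KPNA6 and KPNA3 were not called (0.13 and -0.029). KPNA2 and KPNA5 have mRNAs of nearly the same effective length (0.663 and 0.729 times the median gene). Their log2 fold changes were 0.71 and -0.76, each with an SE under 0.1. The cause of this difference was not tested. KPNA2 was also far more abundant, at 264 ± 1.47 FPKM in RIP and 159.9 ± 9.69 FPKM in input, than KPNA5, at 7.78 ± 0.163 FPKM in RIP and 13.1 ± 0.0634 FPKM in input (SD, n = 2 each).

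The importin beta family carries cargo directly or, in the case of KPNB1, through importin alpha. Of these 11 carriers 9 were lower and 2 higher (median log2 value -0.95), against 39.7% and 38.0% of all tested genes. With library totals none were higher and 10 were lower, against 17.0% and 65.5% of all tested genes. With length offsets 4 were higher and 4 lower (median -0.083), or 36.4% each, close to the 33.6% and 34.6% of all tested genes.

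KPNB1, the main import carrier and the most abundant of them, had 497 and 483 CPM in RIP, against 559 and 533 CPM in input. The RIP values were a little below the input values (log2 -0.16, SE 0.0673, edgeR adjusted p = 0.0462). This call was marginal. It was lost without the first RIP library (log2 fold change -0.17), without the second (-0.13), with no count filter, with DESeq2 and on both FPKM scales, and with length offsets KPNB1 turned higher (0.24).

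IPO4, which imports core histones among other cargo, had 227 and 232 CPM in RIP, against 139 and 148 CPM in input. It rose 1.60-fold (log2 0.68, SE 0.0686, edgeR adjusted p = 1.99e-07), against the trend for its length (1.27 times the median gene), and was at 0.93 with length offsets and at -0.053, not called, with library totals. IPO13, which both imports and exports proteins, rose 1.31-fold and was at 0.78 with length offsets, but turned lower with library totals (-0.34).

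TNPO1 (transportin), the carrier of hnRNP proteins, had 130.2 and 140.4 CPM in RIP, against 321 and 309.7 CPM in input. The RIP values were under 0.5 times those of input (fold change 0.429, log2 -1.22, SE 0.0708, edgeR adjusted p = 2.66e-10), but with length offsets TNPO1 was at -0.083 and not called. IPO7 and IPO5, which import ribosomal proteins among other cargo, fell by 1.18 and 1.13 on the log2 scale and remained lower with length offsets (-0.32 and -0.31). TNPO3, the carrier of SR splicing proteins, and IPO8 fell by 0.997 and 0.95 on the log2 scale, and they too remained lower (-0.50 and -0.26). IPO9 fell by 0.97, but is among the longest members (4.18 times the median gene) and turned higher with length offsets (0.41). IPO11 and TNPO2, a close relative of TNPO1, fell by 0.64 and 0.56 and were not called with length offsets (-0.15 and 0.091). The fragments of IPO11 were not whole numbers in input. The table also lists a read-through gene, IPO11-LRRC70, so the split of fragments between them is uncertain.

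All 7 exportin mRNAs were lower in RIP, under TMM scaling (39.7% of all tested genes) and with library totals (65.5% of all tested genes). Their median was -0.73 on the log2 scale with TMM. With length offsets 4 were lower (34.6% of all tested genes), 1 was higher (33.6% of all tested genes) and 2 were not called. CSE1L (also CAS), which returns importin alpha to the cytoplasm, was the most abundant. It had 307 and 329 CPM in RIP, against 411 and 455 CPM in input. The groups did not overlap, and CSE1L fell by 0.44 on the log2 scale (SE 0.0734, edgeR adjusted p = 4.62e-05). It was at -0.18 with length offsets, still lower.

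XPO4, known to carry the translation factor eIF5A out of the nucleus, had 24.5 and 25.1 CPM in RIP, against 90.0 and 84.8 CPM in input. The RIP libraries were close together and lay far below input. Its fold change, 0.284, was the lowest of all members (log2 -1.82, SE 0.0806, edgeR adjusted p = 1.34e-11). XPO4 remained lower with length offsets (-0.56).

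XPO6, the exportin of actin, changed least. It had 164 and 166 CPM in RIP, against 206 and 204 CPM in input. It fell by 0.31 on the log2 scale (SE 0.0665, edgeR adjusted p = 4.67e-04) and turned higher with length offsets (0.20). XPOT, the tRNA exportin, fell by 1.19 and XPO1 (CRM1), the receptor of leucine-rich export signals, by 0.78 on the log2 scale, and both remained lower with length offsets (-0.83 and -0.18). XPO5, the exportin of microRNA precursors, and XPO7 fell by 0.64 and 0.73 and were then not called (0.065 and -0.13).

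The 23 tested nucleoporin genes, with RANBP2 and TPR counted among them, had 5 members higher and 14 lower (median log2 fold change -0.51). Over all tested genes 38.0% were higher and 39.7% lower. With library totals none were higher and 22 lower, against 17.0% and 65.5% of all tested genes. With length offsets 7 were higher and 11 lower (median -0.075), against 33.6% and 34.6% of all tested genes. NUP210L is among the lower genes in each of these counts.

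The nuclear basket, the filaments on the nucleoplasmic side, had all 3 of its members lower, against 39.7% of all tested genes. TPR, the coiled-coil protein that forms the basket's filaments, had 93.4 and 92.8 CPM in RIP, against 347 and 301 CPM in input. The RIP values were far below the input values and close together, and TPR had a fold change of 0.287 (log2 -1.80, SE 0.0794, edgeR adjusted p = 1.28e-11), the second lowest of the members. It remained lower with length offsets (-0.56), as did NUP50, which helps to take importin alpha apart from its cargo (log2 -1.20, and -0.52 with length offsets). NUP153, which anchors the basket and was its most abundant mRNA per length, had 141 and 149 CPM in RIP, against 237 and 237 CPM in input. It fell by 0.71 on the log2 scale (SE 0.0681, edgeR adjusted p = 1.00e-07) and was not called with length offsets (0.056).

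Of the 6 outer ring (Y complex) genes in the name rule, 3 were higher and 3 lower, against 38.0% and 39.7% of all tested genes. With library totals none were higher and 5 lower, against 17.0% and 65.5% of all tested genes. With length offsets 2 were higher and 3 lower, against 33.6% and 34.6%. The Y complex genes SEC13, SEH1L and AHCTF1 lie outside the name rule. SEC13 was higher (log2 1.47), and SEH1L and AHCTF1 were lower (-0.38 and -1.06). With length offsets SEC13 and SEH1L were at 0.65 and -0.61, and AHCTF1 was not called (0.088). NUP43, a small propeller protein of the Y, had 68.5 and 72.1 CPM in RIP, against 187 and 179.9 CPM in input. Both RIP libraries were under 0.5 times the input level (fold change 0.383, log2 -1.39, SE 0.0713, edgeR adjusted p = 6.62e-11), and NUP43 had the third lowest log2 fold change among members other than NUP210L. It remained lower with length offsets (-1.05). NUP37, another propeller protein of the complex, had 61.6 and 61.8 CPM in RIP, against 38.0 and 44.2 CPM in input. It rose 1.504-fold (log2 0.59, SE 0.0856, edgeR adjusted p = 1.21e-05), was not called with library totals (-0.14) and turned lower with length offsets (-0.42).

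NUP133, at the tail of the Y and its most abundant mRNA, had 307 and 303 CPM in RIP, against 252 and 265 CPM in input. It rose 1.18-fold (log2 0.24, SE 0.0673, edgeR adjusted p = 0.0046) and was at 0.66 with length offsets, but was lower with library totals (-0.49). NUP85 rose 1.18-fold, was lower with library totals (-0.50) and was not called with length offsets (-0.075). Without the first RIP library the calls of NUP133 (log2 fold change 0.23) and NUP85 (0.23) were lost. NUP107 fell by 0.62 and remained lower with length offsets (-0.55), whereas NUP160 fell by 0.47 and then turned higher (0.24).

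The inner ring holds the scaffold that lines the channel. It had 3 of 5 genes lower and none higher, against 39.7% and 38.0% of all tested genes. With library totals all 5 were lower, against 65.5% of all tested genes. NUP205, one of its large arch-shaped proteins, had 168 and 178 CPM in RIP, against 409 and 398 CPM in input. The RIP values were under 0.5 times those of input (fold change 0.428, log2 -1.22, SE 0.069, edgeR adjusted p = 1.92e-10), and NUP205 remained lower with length offsets (-0.36). Its paralog NUP188 fell by 0.51 and turned higher with length offsets (0.26). NUP155, which links the scaffold to the membrane, fell by 0.81 and remained lower (-0.34).

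NUP93, the linker protein of the inner ring, had 122 and 119.8 CPM in RIP, against 114 and 121 CPM in input. These values overlap, and NUP93 was not called (log2 0.039, SE 0.0693, edgeR adjusted p = 0.618). It was also not called with length offsets (0.023). NUP35, the smallest of the ring by transcript length, was at -0.12 and not called, but was lower with length offsets (-0.79).

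Of the 3 central channel genes in the name rule, 1 was higher and none lower, against 38.0% and 39.7% of all tested genes. With library totals all 3 were lower, against 65.5% of all tested genes. With length offsets 2 were higher and 1 lower, against 33.6% and 34.6%. NUPL1 (NUP58), a channel gene outside the name rule, was lower (log2 -1.19, and -0.71 with length offsets). NUP62, the core of the phenylalanine-glycine rich trimer, had 37.3 and 36.1 FPKM in RIP, against 29.5 and 31.9 FPKM in input. It rose 1.18-fold (log2 0.24, SE 0.0698, edgeR adjusted p = 0.00513) and was at 0.40 with length offsets, but was lower with library totals (-0.49), and its call was lost without the first RIP library (log2 fold change 0.23). Its fragments were not whole numbers in any library, so its counts are estimates.

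NUP98, whose gene also codes for the Y complex protein NUP96, had 156 and 163 CPM in RIP, against 167 and 164 CPM in input. The RIP values lay just under the input values and NUP98 was not called (log2 -0.059, SE 0.0677, edgeR adjusted p = 0.437), although it was lower with library totals (-0.79) and higher with length offsets (0.77). NUP98 and NUP205 have mRNAs of similar effective length (2.17 and 2.26 times the median gene) and had log2 fold changes of -0.059 and -1.22. The cause of this difference was not tested. NUP54, the partner of NUP62, overlapped between groups and was not called (log2 -0.016). It was lower with library totals (-0.75) and with length offsets (-0.31).

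The cytoplasmic face had 1 of 3 genes higher and 2 lower, against 38.0% and 39.7% of all tested genes. By library totals all 3 were lower, against 65.5% of all tested genes. NUP88 had 115 and 111 CPM in RIP, against 86.8 and 89.4 CPM in input. It rose 1.28-fold (log2 0.36, SE 0.0693, edgeR adjusted p = 2.00e-04), was lower with library totals (-0.37) and not called with length offsets (0.14). NUP214, its binding partner, had 31.4 and 29.2 CPM in RIP, against 55.9 and 53.5 CPM in input. It fell by 0.85 on the log2 scale (SE 0.083, edgeR adjusted p = 1.24e-07) and was not called with length offsets (0.059). RANBP2 (NUP358), the giant filament protein that binds RAN and acts as a SUMO ligase, fell by 0.73 and turned higher with length offsets (0.67). It had the longest effective length of the members, 4.29 times the median gene. The table lists 7 RGPD genes that are near copies of RANBP2, and the split of fragments among them is uncertain.

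Among the remaining nucleoporin genes, NUP210, a protein of the pore membrane, had 203 and 196 CPM in RIP, against 244 and 239 CPM in input. It fell by 0.27 on the log2 scale (SE 0.067, edgeR adjusted p = 0.00157). This call was lost without the second RIP library (log2 fold change -0.24), and with length offsets NUP210 turned higher (0.72). Its paralog NUP210L had 8 and 10 fragments in RIP, against 36 and 34 in input. It was called lower (log2 -1.76, SE 0.376, edgeR adjusted p = 5.14e-04), with the count filter bearing on this as stated above. NUP62CL, a gene related to the C-terminal part of NUP62, fell by 0.67 although its mRNA is short (0.554 times the median gene), and with length offsets it was at -1.31, the lowest member on that scale.

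**Figure D4:**
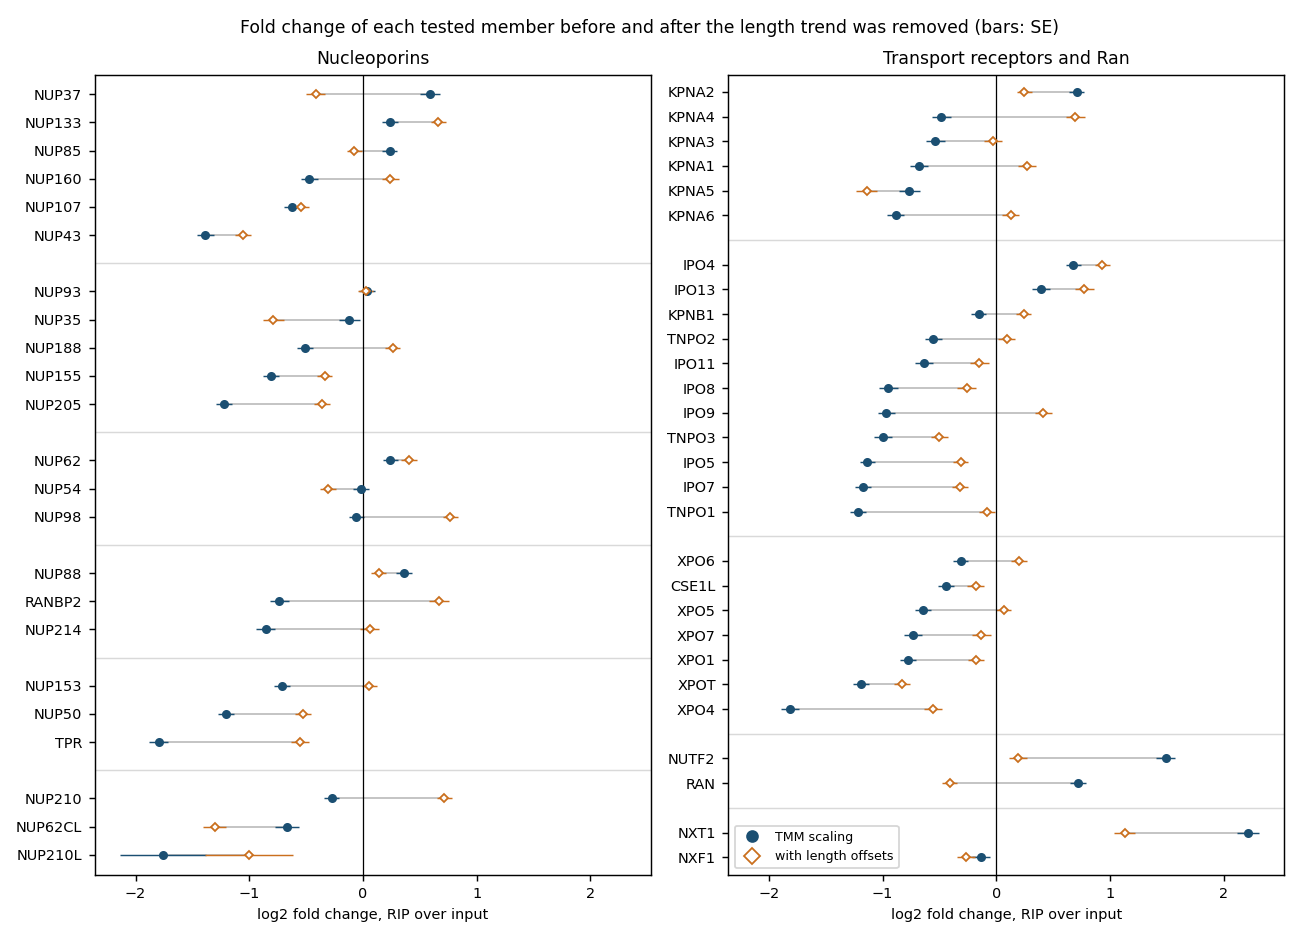
Log2 fold change in RIP over input of each tested member by role, with TMM scaling (circles) and with length offsets (diamonds), bars SE. Offsets moved most long members to the right and the short NXT1, NUTF2, RAN and NUP37 to the left; NXT1, IPO13, IPO4, NUP98 and NUP210 were then the highest members and NUP62CL, KPNA5, NUP43 and NUP210L the lowest.

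Related genes outside the name rule were counted in the same way, by lists. They work with these proteins or are named for RAN binding. Of 11 other pore protein genes 4 were higher and 6 lower (with library totals 1 and 9, with length offsets 3 and 3). Over all tested genes 38.0% were higher and 39.7% lower (with library totals 17.0% and 65.5%, with length offsets 33.6% and 34.6%). SEC13, which serves both the Y complex and vesicle coats, rose 2.77-fold, and was at 0.74 with library totals and 0.65 with length offsets. AAAS (ALADIN) rose 1.52-fold and was not called on either of these scales (-0.12 and 0.057). TMEM48, the membrane nucleoporin NDC1, fell by 1.41 and was at -0.82 with length offsets.

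A further list held 7 genes of the RAN cycle or named for RAN binding. Of these, 4 were higher and 2 lower (with library totals 2 and 4, with length offsets 3 and 2). RANBP9 and RANBP10, listed for their names, were the 2 lower genes on the TMM scale. For comparison, 38.0% of all tested genes were higher and 39.7% lower (with library totals 17.0% and 65.5%, with length offsets 33.6% and 34.6%). RANGRF (MOG1), a small RAN-binding protein, rose 3.52-fold and was higher on the other scales too (1.09 and 0.56). RANBP1, a co-factor of GTP hydrolysis by RAN, rose 2.19-fold and, like RAN, turned lower with length offsets (-0.17). RCC1, the nucleotide exchange factor that loads RAN with GTP, rose 1.67-fold and was at 0.57 with length offsets, but was not called with library totals (0.008). RANBP10 fell by 0.47 and was not called with length offsets (0.23). RANBP9 lost its call as lower without the first RIP library, at -0.24.

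Of 21 genes of mRNA export outside NXF1 and NXT1, 10 were higher and 7 lower (with library totals 4 and 13, with length offsets 7 and 11). In shares this was 47.6% higher and 33.3% lower, against 38.0% and 39.7% of all tested genes. With library totals 19.0% were higher and 61.9% lower, close to the 17.0% and 65.5% of all tested genes. With length offsets 33.3% were higher, close to the 33.6% of all tested genes, and 52.4% lower, against 34.6%. ALYREF, the adaptor that hands mRNA to NXF1, rose 2.43-fold and was at 0.55 and 0.18 on the other scales, still called. THOC6 of the THO complex rose 2.71-fold (0.71 and 0.61). The helicase gene DDX39B rose 1.15-fold, was lower on both other scales (-0.53 and -0.19), and lost its call without either RIP library (0.24 and 0.17). ZC3H11A had the lowest fold change, 0.286, and remained lower (-2.54 and -1.22). Among 4 other carriers and adaptors, 2 were higher and 1 lower, against 38.0% and 39.7% of all tested genes. With library totals this was 1 and 2, against 17.0% and 65.5% of all tested genes. With length offsets it was 1 and 1, against 33.6% and 34.6%. C11orf73 (Hikeshi), the heat shock carrier of HSP70, was at 2.44-fold (0.56 and 0.21 on the other scales). NMD3, the export adaptor of the large ribosomal subunit, was not called (log2 -0.089), but was lower with library totals (-0.82) and with length offsets (-0.20). PHAX, the snRNA export adaptor, was at -0.24 and lost its call with length offsets (0.033), with DESeq2 (-0.22) and without the first RIP (-0.21), the second RIP (-0.25) and the first input library (-0.16).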

How the data were processed

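The build was hg19, and the tools named in the submitters' processing notes are TopHat2 2.0.13, Cuffdiff 2.2.1, Bowtie2 2.2.6 and cutadapt 1.5. The labels do not state the annotation, how strand was counted or how multi-mapping reads were treated. The authors deposited, per gene and library, an expected count, the estimated number of fragments (97.9% whole). The authors' scaled fragments, a signal, are these divided by 1 factor per library, per the file headers and values. The deposited FPKM values are per transcript length. The table numbers replicates from 0, and these were matched to the titles' numbers in order.

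Estimated counts were rounded. Genes passing filterByExpr (minimum count 10, total 15) were fitted with edgeR 4.0.16 in R 4.3.3 (TMM, glmQLFit, glmQLFTest, group as the only term, Benjamini-Hochberg over all genes, threshold 0.05). TMM factors were 0.777 and 0.776 in RIP and 1.30 and 1.28 in input. SE is the log2 fold change over the square root of F. Length offsets were a lowess (span 0.3) of log2 fold change on log2 effective length. Alternatives also used DESeq2 1.42.0 and limma 3.58.1 on log2(FPKM + 1) and log2(FPKM + 0.1). The code was tested on simulated data. Libraries of a group differed by more than counting noise (chi-square per gene 3.40 in RIP, 6.17 in input), so none was counted as a duplicate deposit, which does not show that they came from separate cultures.

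Members, roles and related lists were chosen with earlier results of these data known. Every tested member is named. Values per library are given for RAN, for the most abundant, highest and lowest member of each role (abundance by mean FPKM), and for the 3 highest and 3 lowest log2 fold changes, and of each related list the 2 most abundant and the highest and lowest gene are named. Genes whose call depended on a single library, and NUPL1, SEH1L and AHCTF1 of the related lists, were named in addition, after their values were seen. No protein or transcript sequence was used here. A marker of another cell type is not reported here.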

Additional observations from a re-analysis of the deposited data

How the results depend on the processing

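The counts of 11 members higher and 35 lower and their median log2 fold change of -0.62 were set against 13 alternatives. With library totals there were 2 higher, and the median was -1.35. With length offsets there were 22 lower and 16 higher, and the median was -0.075. On the log2(FPKM + 1) scale the median was -0.49. DESeq2 gave 11 higher and 34 lower. Leaving out 1 library at a time gave 8 (without the first RIP library) to 11 higher, 33 to 35 lower and medians between -0.60 and -0.55, and leaving out the 10 most abundant genes changed no member's call. The replicate numbers do not show that libraries are paired: the deviations of same-numbered libraries correlated at 0.017 over genes. With the replicate block, 11 were higher and 35 lower with the same median, and no member's call changed. With the replicate block and length offsets there were 17 higher, NUTF2 being added, and 22 lower, and the median was -0.075. With library totals the sign turned for RAN (-0.012), NUP62 (-0.49), NUP88 (-0.37), KPNA2 (-0.023), IPO4 (-0.053), IPO13 (-0.34), NUP93 (-0.69), NUP37 (-0.14), NUP133 (-0.49) and NUP85 (-0.50). With length offsets it turned for RAN (-0.41), NUP98 (0.77), RANBP2 (0.67), NUP214 (0.059), XPO6 (0.20), XPO5 (0.065), KPNA4 (0.70), KPNA1 (0.27), KPNA6 (0.13), KPNB1 (0.24), TNPO2 (0.091), IPO9 (0.41), NUP188 (0.26), NUP210 (0.72), NUP153 (0.056), NUP37 (-0.42), NUP85 (-0.075) and NUP160 (0.24). The same 18 turned with the replicate block and length offsets together, at the same rounded values except for KPNA4 (0.69), IPO9 (0.42) and NUP37 (-0.41). Members not called changed sign by small amounts: NUP54 without the second input library (0.041), with DESeq2 (0.000299) and with FPKM at either pseudocount (0.0016 and 0.0017), NUP98 (0.038 and 0.040) and NXF1 (0.077 and 0.081) at those pseudocounts, and NUP93 without the first input library (-0.0090). Leaving out 1 library at a time gave -0.061 to 0.041 for NUP54 and -0.0090 to 0.099 for NUP93. The shift with library totals follows from the scaling itself, and for the other alternatives the cause was not tested. Depth limits NUP210L alone among tested members, at 10 fragments or fewer in RIP.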
